A study of Rattus norvegicus with 10 samples.

Results

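Long noncoding RNAs (lncRNAs) are RNA transcripts with no evident protein product that are longer than the small RNAs, and many are spliced and transcribed in the brain at lower levels than mRNAs. Their roles are known for few of them, some acting near the site where they are made and others elsewhere in the cell. A run of such transcripts on the plus strand of chromosome 1 of the rat genome build rn5 is described here. Its members were all assembled lncRNAs whose plus-strand span lay between 122.4 and 123.5 Mb, a choice that used position and strand and no measured level. There were 17 of them, out of 1924 lncRNAs in the authors' assembly (named TCONS with a number) and 32166 transcripts with a deposited level.

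The libraries came from brain tissue of 5 male Sprague Dawley rats, named P45, P52, P61, P71 and P72, taken 24 hours after transient middle cerebral artery occlusion (MCAO), in which a suture blocks the artery and is later withdrawn. Tissue from both hemispheres of each rat was sequenced, giving 5 right and 5 left libraries. No genetic change or further agent was applied to either side. By the study's account the tissue came from the middle coronal slices of the brain, and the study calls it cortex. Levels given for a hemisphere are those of this tissue and not of the whole hemisphere. The labels name the sides only. The right was read as the ischemic hemisphere and the left as the paired nonischemic one, since the suture is drawn on that side in the study and its own left-to-right ratios, read with its wording, also treat the right as ischemic. Its deficit scale scores circling to the right, as a left-sided lesion would give. If the sides are the other way round, every change given here has the opposite sign. The control hemisphere belongs to an animal with a stroke, and no sham-operated animal was among the samples. Levels are given in FPKM, fragments scaled to exon length and to the mapped reads of the library, as Cufflinks gave them for each transcript and library.

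The libraries did not all go with their side. When they were clustered on all transcripts tested, the right library of P71 fell with the 5 left libraries and apart from the other 4 right ones. Relative depth, estimated from the commonest ratio between libraries of the values of transcripts with few reads, ran from 64.8% to 100% of the deepest library on the left and from 61.05% to 81.5% on the right. The table gives Ensembl transcript identifiers without gene symbols, so markers of brain cells were not read here. In tissue of mixed cells, fewer cells of a type and less RNA per cell cannot be told apart.

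The 17 members covered 951 kb and formed 2 loci of overlapping spans, separated by 9517 bases. The first locus lay at chr1:122439751-122759761 and held 3 members, TCONS_00012089, TCONS_00010376 and TCONS_00001004. The second lay at chr1:122769279-123390657 and held the other 14. No other assembled plus-strand lncRNA was listed within 3747 kb before or 4405 kb after the cluster. The processed files used here hold positions and exon sizes and no bases for these transcripts.

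**Figure D1:**
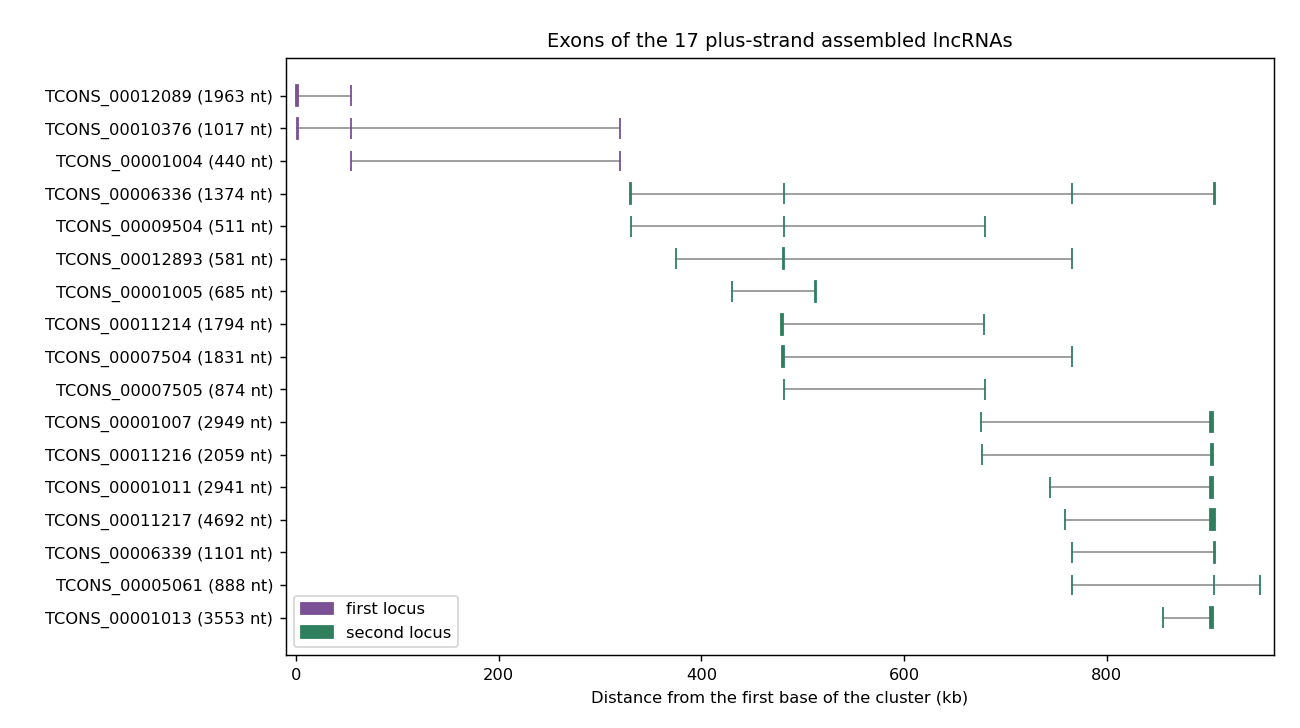
Exon positions of the 17 members, with 1 row for each transcript in order of its start, boxes for exons (outlined so that short ones can be seen), thin lines for introns, and distance from the first base of the cluster in kb on the horizontal axis. The 3 members of the first locus and the 14 of the second do not overlap, and most exons of the second locus lie in a few places that several members share.

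As assembled, most members were short RNAs spread over very long introns. Of the 17, 12 had 2 exons, and their exons added up to 440 to 4692 nt. The median was 1374 nt, against 1622 nt over all 1924 assembled lncRNAs. The longest intron of a member had a median of 197839 bases, and 14 of 17 members had an intron of over 100 kb. Over all assembled lncRNAs that median was 6973 bases, and 8.84% had such an intron. A first or last exon of under 25 nt was listed for 6 of 17 members, and for 5.20% of all assembled lncRNAs. The shortest were the 6-nt last exons of TCONS_00012089 and TCONS_00011214, which few reads can cross. These features were compared without a test, since members of 1 locus share exons. Some introns with different ends were almost equal in length. In the first locus these were of 265789 and 265785 bases. In the second they included 151050 and 151047, 284608 and 284596, and 226684 and 226679 bases. The models are taken as listed, and whether the mapping of reads gave rise to such junctions was not tested.

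Members of the second locus shared splice junctions in 3 groups. TCONS_00006336, TCONS_00006339 and TCONS_00005061 all joined an exon ending at 123205876 to one beginning at 123345837, across an intron of 139960 bases. TCONS_00009504 and TCONS_00007505 shared an intron of 197839 bases, and TCONS_00012893 and TCONS_00007504 one of 284608 bases. In the first locus TCONS_00012089 and TCONS_00010376 shared an intron of 52005 bases. Exon sequence was shared more widely. All 1101 exonic bases of TCONS_00006339 lay in exons of other members, and TCONS_00001007 and TCONS_00001011 had only 20 and 12 bases of their own beside 2929 that lay within the last exon of TCONS_00011217. TCONS_00001005, at chr1:122870053-122952702, shared no exonic base with another member. A read from a shared exon is divided among the members by Cufflinks, so the level of 1 member is an estimate that depends on the others.

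The members were abundant for assembled lncRNAs. Their mean FPKM over the 10 libraries had a median of 1.20, against 0.551 over all assembled lncRNAs, and 10 of 17 reached 1 FPKM. Summed over its members, the second locus had a mean of 19.0 FPKM and ranked 37 of 676 assembled loci, and the first had 6.27 FPKM and ranked 116. The median over all loci was 1.93 FPKM. A sum can grow with the number of transcripts in a locus, 14 in the second and 3 in the first, and the ranks were not adjusted for it. The order of levels within the cluster began with TCONS_00001004 at 6.01 FPKM, followed by TCONS_00006339 at 3.33, TCONS_00001005 at 2.71, TCONS_00006336 at 2.56 and TCONS_00001013 at 2.02 FPKM. Neighbours in this order overlapped in range over the libraries, from 1.86 to 10.4 FPKM for TCONS_00001004 and from 0.825 to 8.83 FPKM for TCONS_00006339. FPKM is scaled to length, but the levels of members that share exons, and so this order, still depend on how Cufflinks divided the shared reads.

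At the low end, TCONS_00001007 and TCONS_00001011 were at no more than 2.4e-05 and 4.52e-05 FPKM in any library. These are the same members that are almost wholly contained in TCONS_00011217, which was at 1.30 FPKM on average. TCONS_00012089 had a mean of 0.0919 FPKM. These 3 fell below the limit of 0.1 FPKM in the mean that was set for testing, and 14 of 17 members were tested. A value below 0.001 FPKM was listed in 37 of the 170 member values (21.8%), close to the 22.4% over all assembled lncRNAs, and 8 of 17 members had at least 1 such library.

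**Figure D2:**
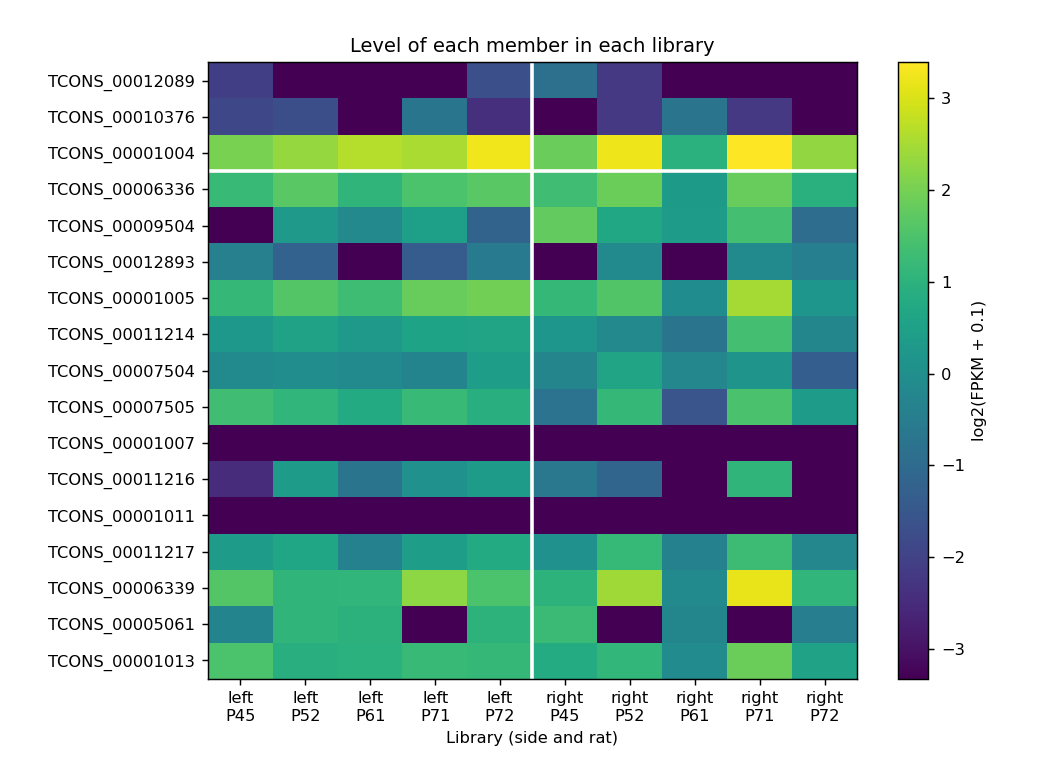
Level of each member as log2(FPKM + 0.1), by colour, with members in order of position in rows and the 10 libraries in columns, left side first. The horizontal white line parts the loci and the vertical one the sides. The right library of P71 is bright and that of P61 dim across most rows, while TCONS_00001007 and TCONS_00001011 are near 0 FPKM throughout, at the bottom of the colour scale.

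The comparison of ischemic with paired nonischemic hemispheres asked whether the cluster responded to focal ischemia. Neither locus showed a difference that passed the test. The second locus summed to 16.9, 20.2, 15.7, 21.1 and 21.8 FPKM in the left libraries of P45, P52, P61, P71 and P72, and to 17.5, 23.0, 7.82, 35.2 and 10.97 FPKM in the right ones. The sides overlapped, and the highest and the 2 lowest of all 10 values were on the right. The means were almost equal, at 19.1 ± 2.69 FPKM on the left and 18.9 ± 10.8 FPKM on the right (SD, n = 5 each). On the scale of log2(FPKM + 0.1) the paired change, right minus left, was -0.20 (standard error 0.27, 95% interval -0.85 to 0.45, adjusted p = 0.679 from limma).

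The first locus gave the same picture. It summed to 4.30, 5.13, 6.15, 6.26 and 9.77 FPKM on the left and to 3.99, 9.40, 2.36, 10.5 and 4.83 FPKM on the right, in the same order of rats. The means were 6.32 ± 2.09 and 6.22 ± 3.54 FPKM (SD, n = 5 each), and the paired log2 change was -0.17 (95% interval -1.03 to 0.69, standard error 0.36, limma adjusted p = 0.799). In the fit that took each locus as 1 row, 3.25% of the 676 assembled loci and 8.40% of all 19916 rows had an adjusted p under 0.05. A change of any size within these intervals remains compatible with the values of these 5 rats.

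**Figure D3:**
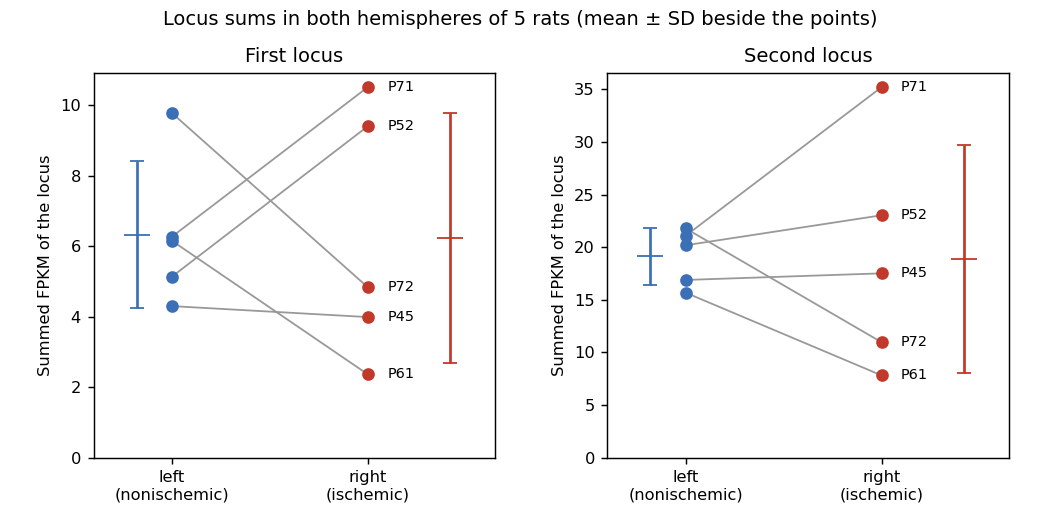
Summed FPKM of the first locus (left panel) and the second locus (right panel) in each library, with a grey line joining both hemispheres of a rat and a bar beside the points for the mean ± SD of 5 libraries. The means are level (6.32 and 6.22 FPKM, 19.1 and 18.9 FPKM), while the right-hand points of the second locus run from 7.82 to 35.2 FPKM against 15.7 to 21.8 FPKM on the left.

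The rats did not move in 1 direction. In P61 and P72 the second locus was lower on the ischemic side, by -0.99 and -0.98 on the log2 scale, and in P71 it was higher by 0.74. P45 and P52 moved by only 0.052 and 0.19. The first locus moved by -1.34 in P61, -1.001 in P72, 0.74 in P71, 0.86 in P52 and -0.11 in P45. The difference between the loci, second minus first, was -0.029 ± 0.385 (SD, n = 5 rats), with a two-sided exact sign-flip permutation p of 0.938. With 5 rats the smallest such p is 2 of 32 sign patterns, which is above 0.05.

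Of the 14 single members in limma's paired fit, 0 passed an adjusted p of 0.05, beside 1.47% of the 1696 assembled lncRNAs tested and 7.71% of all 20936 transcripts tested. At an unadjusted p under 0.05 the number was also 0 of 14, beside 12.1% of assembled lncRNAs and 26.6% of all transcripts, and without moderation of the variance it was 0 again. With P71 left out it was 1 of 15 members tested, beside 172 of 1692 assembled lncRNAs and 4959 of 20882 transcripts. In that fit 0 members passed an adjusted p of 0.05. A paired fit of 5 rats called other assembled lncRNAs, so the counts of 0 are read against those shares and not as an absence of change. The mean change was below 0 in 11 and above 0 in 3 of the 14 members, with a median of -0.25, against -0.16 over assembled lncRNAs tested and -0.012 over all transcripts tested. Adjusted p ran from 0.251 to 0.983. In no member were the sides without overlap, which 2.24% of assembled lncRNAs tested were, and 2098 of all 20936 transcripts tested.

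**Figure D4:**
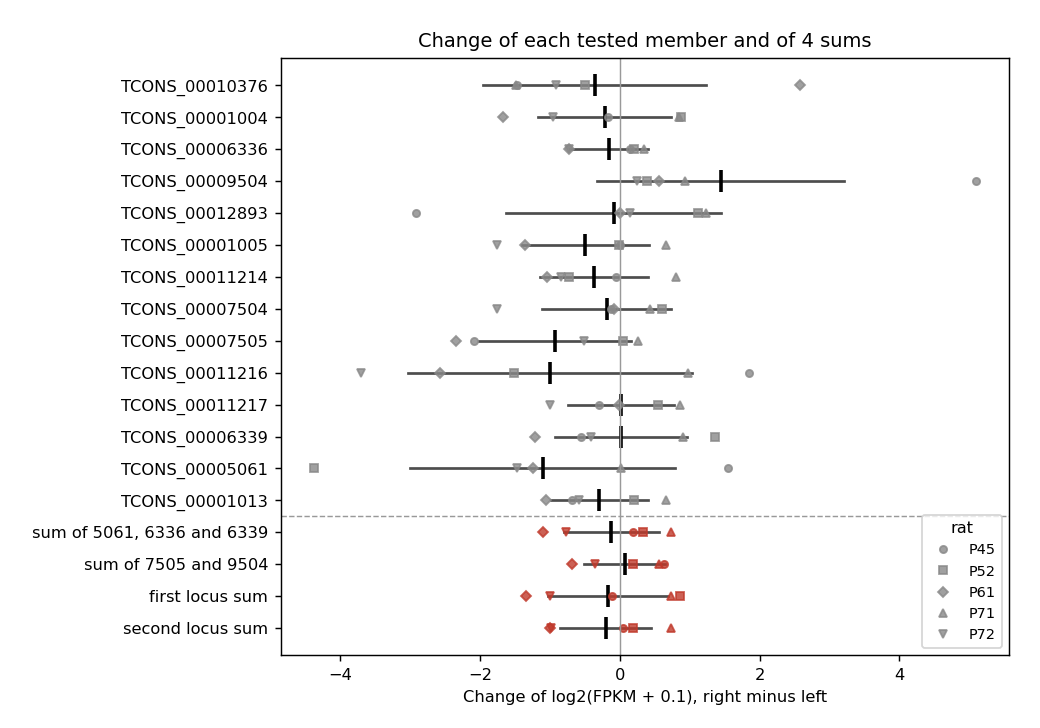
Change of log2(FPKM + 0.1), right minus left, for the 14 members tested (grey) and 4 sums (red), with a symbol for each rat, a black tick for the mean and a line for limma's 95% interval. All intervals include 0, and the sums of members that share a junction have narrower intervals than TCONS_00005061, TCONS_00007505 and TCONS_00009504, while TCONS_00006336 alone has a narrower one (-0.71 to 0.41) than the sum it belongs to (-0.80 to 0.56).

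The mean changes farthest from 0 were those of TCONS_00009504 (1.44), TCONS_00005061 (-1.10), TCONS_00011216 (-0.99) and TCONS_00007505 (-0.93) on the log2 scale, and none passed the test. TCONS_00011216 shares no junction with another member, and the other 3 do. Members that share junctions were also among those closest to 0, such as TCONS_00006339 (0.019) and TCONS_00012893 (-0.085). TCONS_00009504 was at 5.17e-18, 1.11, 0.792, 1.27 and 0.343 FPKM on the left and at 3.32, 1.49, 1.22, 2.51 and 0.424 FPKM on the right, for P45, P52, P61, P71 and P72. It was higher on the right in 5 of 5 rats, as 10.6% of assembled lncRNAs tested moved 1 way in all 5 rats, and its exact sign-flip p was the smallest that 5 rats allow. Its mean change of 1.44 on the log2 scale (95% interval -0.32 to 3.21, limma adjusted p = 0.268) rested on P45, where it was 5.09, and fell to 0.53 without that rat.

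Its partner TCONS_00007505 was at 2.41, 2.05, 1.62, 2.21 and 1.75 FPKM on the left and at 0.488, 2.13, 0.238, 2.67 and 1.20 FPKM on the right. It was lowest in the right libraries of P45 and P61, the 2 libraries in which TCONS_00009504 made up most of the pair. The mean change was -0.93 on the log2 scale (standard error 0.46), with a limma adjusted p of 0.251. Summed, the pair was at 2.71 ± 0.582 FPKM on the left and 3.14 ± 1.58 FPKM on the right (SD, n = 5 each). That sum changed by 0.071 on the log2 scale (95% interval -0.51 to 0.65, standard error 0.24, limma adjusted p = 0.888), smaller in size than that of either part. The parts did not run against each other across the libraries as a whole, with r = -0.30 and rho = -0.0061 over 10 libraries, and r = -0.097 and rho = 0.26 without the 2 libraries farthest from the median.

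TCONS_00005061 and TCONS_00006339 share their first exon of 679 nt and their next splice junction. TCONS_00005061 was at 0.714, 1.98, 1.89, 2.34e-05 and 1.91 FPKM on the left and at 2.28, 0.000173, 0.739, 0.00176 and 0.628 FPKM on the right. TCONS_00006339 was at 2.90, 2.01, 2.05, 4.66 and 2.72 FPKM on the left and at 1.94, 5.35, 0.825, 8.83 and 2.02 FPKM on the right. The 3 libraries in which TCONS_00005061 was at or near 0, the left of P71 and the right of P52 and P71, were the 3 with the highest TCONS_00006339. Over the 10 libraries Pearson's r between the 2 was -0.75 and Spearman's rho -0.72, and -0.66 and -0.55 without the 2 libraries farthest from the median. They are given as a description with no p, since both libraries of a rat come from 1 animal and reads are divided between the 2 members.

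With TCONS_00006336 added, the 3 members that share the junction summed to 6.78 ± 0.870 FPKM on the left and 7.02 ± 3.76 FPKM on the right (SD, n = 5 each). The mean FPKM was thus slightly higher on the right. The mean of the paired log2 changes of this sum was -0.12 (95% interval -0.80 to 0.56, limma adjusted p = 0.826), with 3 rats up and 2 down. TCONS_00005061 alone had a mean change of -1.10 with a standard error of 0.79. The sum followed the other members of the second locus over the libraries (r = 0.98, rho = 0.96, and r = 0.94 without the 2 farthest libraries). The share of the second locus held by TCONS_00005061 ran from 0.000111% in the left library of P71 to 13.0% in the right one of P45, whereas TCONS_00006336 held between 9.83% and 16.7%. In the first locus TCONS_00001004 held between 78.9% and 100% of the sum.

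**Figure D5:**
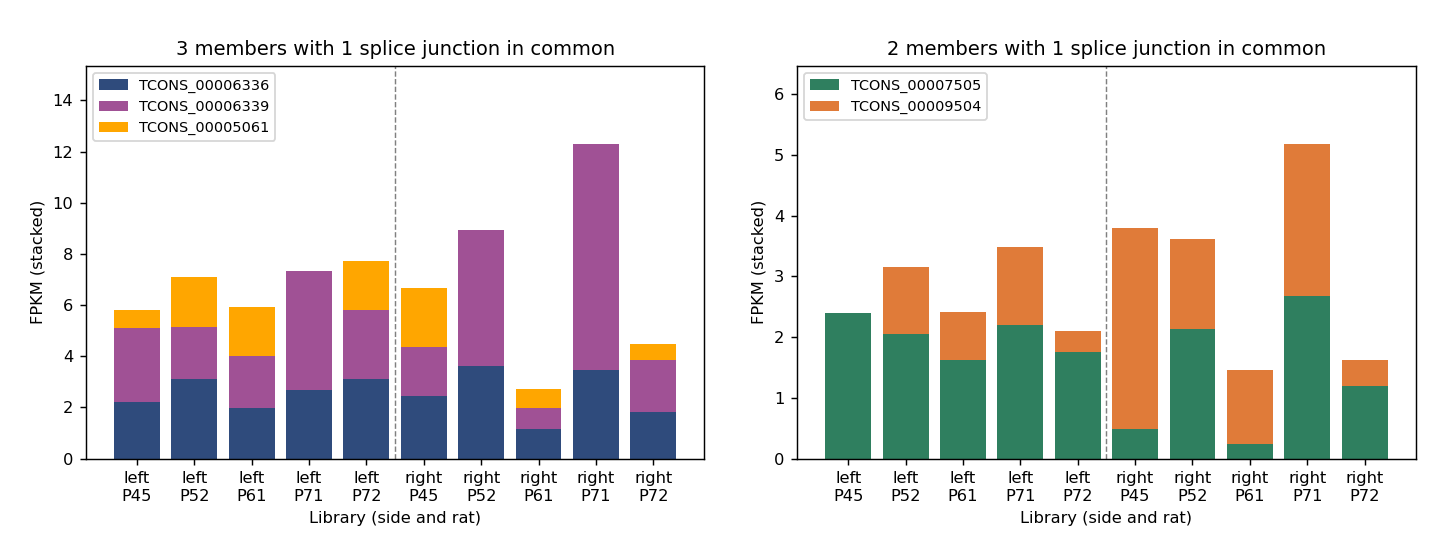
FPKM of the members with a splice junction in common, stacked for each library, with TCONS_00006336, TCONS_00006339 and TCONS_00005061 in the left panel and TCONS_00007505 and TCONS_00009504 in the right panel. The left libraries keep to stacks of 5.81 to 7.73 FPKM and 2.10 to 3.48 FPKM, while the shares of the parts within a stack vary, and the right libraries run from 2.72 to 12.3 FPKM and from 1.46 to 5.18 FPKM.

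TCONS_00001004, which made up most of the first locus, was at 3.99, 4.92, 6.15, 5.76 and 9.47 FPKM on the left and at 3.53, 9.16, 1.86, 10.4 and 4.83 FPKM on the right, in the order P45, P52, P61, P71 and P72. Its extremes of all 10 libraries were again the right ones of P61 and P71, and its change was -0.21 with a 95% interval of -1.17 to 0.74. Its locus partner TCONS_00010376 stayed at or below 0.506 FPKM in every library. Among the remaining members of the second locus, TCONS_00001013 ran from 0.836 to 3.57 FPKM, TCONS_00011217 from 0.671 to 2.31 FPKM, TCONS_00007504 from 0.301 to 1.40 FPKM, and TCONS_00012893 and TCONS_00011216 from below 0.001 to 0.828 and 1.98 FPKM. The sides overlapped in all of these. The sum of TCONS_00012893 and TCONS_00007504, which share a junction, changed by -0.052, and that of TCONS_00010376 and TCONS_00012089 by -0.072, with standard errors of 0.35 and 0.69 on the log2 scale.

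Many members, though not all, had their extremes in the same 2 libraries, both on the right. The right library of P71 had the highest value of all 10 in 8 of 14 members tested, and the right library of P61 the lowest in 9 of 14. Over assembled lncRNAs tested these shares were 23.0% and 20.6%, and over all transcripts tested 18.3% and 14.5%. Relative depth in the 2 libraries was 78.3% and 67.6% of the deepest, and its part in the result was not tested. Members of 1 locus share reads, so their counts are not independent of each other.

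Rat by rat, the members were lower on the right in 11 of 14 for P61 and 12 of 14 for P72, against 63.3% and 54.6% of assembled lncRNAs tested and 49.5% and 51.3% of all transcripts tested. In P71 only 1 of 14 was lower on the right, TCONS_00010376, against 48.6% and 46.5%. In P45 it was 10 of 14 against 58.1% and 49.7%, and in P52 5 of 14 against 47.9% and 50.4%. TCONS_00001005, which shares no exon with the others, shared the extremes. It was at 2.11, 2.90, 2.38, 3.46 and 3.78 FPKM on the left and at 2.11, 2.87, 0.868, 5.55 and 1.04 FPKM on the right, with the highest value in the right library of P71 and the lowest in that of P61.

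The spread between rats was wider on the ischemic side. For the second locus the SD of log2(FPKM + 0.1) was 0.852 on the right and 0.208 on the left, a ratio of 4.09, and for the first locus 0.876 and 0.435, a ratio of 2.01. Exchanging the sides within rats in all 32 ways gave two-sided exact permutation p-values of 0.125 and 0.25 for these ratios. With 5 rats this test cannot reach 0.05, since its smallest p is 2 of 32. Both tests were chosen after the values were seen. With each rat left out, the ratio of the second locus ran from 3.14 without P71 to 4.57 without P45. That of the first ran from 1.36 without P61 to 4.02 without P72. The SD was larger on the right in 13 of 14 members tested, but also in 65.5% of assembled lncRNAs and 67.7% of all transcripts tested. It was at least 2 times as large in 8 of 14, beside 20.1% and 20.6%.

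TCONS_00011214 and TCONS_00007505 had the highest ratios of right to left SD on the log2 scale among members tested. TCONS_00011214 kept between 1.101 and 1.40 FPKM on the left and ran from 0.501 to 2.497 FPKM on the right, with log2 SDs of 0.158 and 0.796. TCONS_00009504 was the 1 tested member with the larger SD on the left, where the library of P45 was near 0.

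Both loci, which share no exon, followed each other across the libraries. Pearson's r between their sums was 0.85 and Spearman's rho 0.84 over 10 libraries, and 0.58 and 0.69 without the right libraries of P61 and P71. TCONS_00001005 followed the sum of the other second-locus members with r = 0.96 and rho = 0.88, and r = 0.88 without the right libraries of P61 and P72. The median r over the 91 pairs of tested members was 0.53, with 67 pairs above 0. It was 0.31 within the left and 0.64 within the right libraries, and 0.37 without the right libraries of P61 and P71. Over all other assembled lncRNAs tested the median was 0.044. Of the 91 pairs, 66 were within the second locus, where many members share exons and so reads. These are descriptions, since the points share libraries, animals and scaling. Whether reads that map to more than 1 place had a part was not tested.

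The cluster was set beside 2 other assembled loci of many transcripts. The locus with the most transcripts, 29 on the minus strand at chr2:126503053-126791939, summed to 7.54 ± 1.84 FPKM on the left and 5.47 ± 1.73 FPKM on the right (SD, n = 5 each), and the median r over pairs of its 18 tested transcripts was 0.020. For 4 tested transcripts of the nearest locus, described next, it was 0.049. The nearest plus-strand locus of at least 6 transcripts on chromosome 1, at chr1:118466091-118692946, held 10 and summed to 207 ± 45.9 and 165 ± 93.3 FPKM. In that locus the right library of P71 was the lowest of all, at 62.1 FPKM, where the second locus of the cluster had its highest value. The log2 changes of both loci of the cluster were above those of the other 2 by 0.28 to 0.33 on average. These differences had SDs of 1.12 to 1.36 over 5 rats. Exact sign-flip permutation p ran from 0.562 to 0.75 (5 comparisons, Benjamini-Hochberg adjusted p = 0.938 for each). The smallest p that 5 rats allow, 2 of 32 sign patterns, is above 0.05. No difference of any size could have passed, so this test does not decide whether the loci differ. The difference in r was not tested, and within the cluster the 1 pair of tested members of the first locus had r = -0.28.

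On the opposite strand, TCONS_00006882 overlapped the first locus, at chr1:122439759-122494027. It shared 1949 of its 2273 exonic bases with TCONS_00012089 and 833 with TCONS_00010376. Its level was 2.08, 2.40, 1.08, 1.94 and 2.32 FPKM on the left and 0.937, 2.09, 0.674, 3.38 and 1.02 FPKM on the right, far above the mean of 0.0919 FPKM of TCONS_00012089. Like TCONS_00001004 it was highest in the right library of P71 and lowest in that of P61, with a log2 change of -0.44 (95% interval -1.20 to 0.32, limma adjusted p = 0.423). Whether the counting used strand is not given in the sources used here, and without strand the unspliced reads of both transcripts cannot be told apart.

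The transcripts whose pattern was most like that of the second locus were sought among 15872 others tested with a mean of at least 1 FPKM, by Pearson's r of log2(FPKM + 0.1) over the 10 libraries. The highest were TCONS_00044717 (r = 0.97), at chr16:85018207-85039267, TCONS_00045569 (r = 0.97), at chr16:85188095-85193002, and ENSRNOT00000059845 (r = 0.96). The assembled ones both lie on the plus strand of chromosome 16. In all 3 the right library of P71 was highest and that of P61 lowest, at 6.08 and 2.21 FPKM for TCONS_00044717. In all, 24 of the 15872 reached r = 0.9, and the median r was 0.0097. For the first locus the highest were TCONS_00030346 (r = 0.91), at chr12:14140424-14145519, ENSRNOT00000009975 (r = 0.91) and ENSRNOT00000076824 (r = 0.90). These are the highest of many values over 10 libraries and are given as a description.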

How the data were processed

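Reads were aligned by the authors to the rn5 build (TopHat), and transcripts were built with Cufflinks under guidance of Ensembl models and screened for coding potential. They deposited FPKM values per transcript and library, scaled to exon length and mapped reads, and a list of the assembled lncRNAs with positions and exons. FPKM values are not counts, so no count model was used and no interval from reads is given. Depth per library was estimated only relative to the deepest.

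From the deposited FPKM, log2(FPKM + 0.1) was computed for transcripts with a mean of at least 0.1 FPKM. The change was tested with limma 3.58.1 in R 4.3.3 (lmFit, eBayes with a trend, Benjamini-Hochberg adjustment over all transcripts), with a term for each rat, whose hemispheres are paired. The deviations of both sides of a rat correlated between -0.13 and 0.18. Locus sums were fitted in a table with 1 row for each assembled locus beside the Ensembl transcripts. Exact permutation tests used all 32 sign patterns of 5 rats. The fit and the depth estimate were tested on simulated data. For the fit these had independent noise, with no effect of the rat and no reads shared between transcripts, so they do not cover those features. The rest used pandas 2.3.3, scipy 1.17.1 and numpy 2.4.6 under Python 3.11.15, with figures from matplotlib 3.10.9. Named transcripts are all members, their opposite-strand partner, and the 3 most correlated with each locus. The members and tests were chosen with earlier results of these data known. Gene symbols, sequences and marker genes were not used here.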

Additional observations from a re-analysis of the deposited data

Results flagged for a closer look

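In 44 groups of 5 libraries (members, locus sums, sums over shared junctions and the opposite-strand transcript, each side apart, leaving out TCONS_00001007 and TCONS_00001011, which were below 0.001 FPKM throughout), 4 held 1 library set apart from the rest, its gap to the nearest value being over 0.71 of the group's range (Dixon's critical value for 5 samples). A rate of 1 in 20 gives about 2.2, and the groups share the same libraries. All 4 were on the right side. The library of P71 stood apart for TCONS_00011214 (ratio 0.722), at 2.497 FPKM against 0.501 to 1.06 FPKM, and for TCONS_00011216 (ratio 0.725), at 1.98 FPKM against 1.14e-16 to 0.545 FPKM. The library of P61 stood apart for TCONS_00010376 (ratio 0.763), at 0.498 FPKM against 5.02e-35 to 0.118 FPKM. The library of P45 stood apart for TCONS_00012089 (ratio 0.747), at 0.456 FPKM against 3.95e-06 to 0.115 FPKM.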

How the results depend on the processing

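Of 264 values recomputed under other settings, 250 kept their direction and their side of the threshold, 14 changed sign, and no member or locus had an adjusted p below 0.204. With the animal left out as a block (no replicate block), the locus changes stayed at -0.17 and -0.20, and 0 members were called. With each rat left out, the first locus ran from -0.43 to 0.12, changing sign without P61 (0.12) and without P72 (0.037), and the second from -0.43 to -0.0013. Leaving out 1 rat turned the sign in TCONS_00001004 (-0.49 to 0.15), TCONS_00012893 (-0.42 to 0.62), TCONS_00007504 (-0.39 to 0.21), TCONS_00011217 (-0.19 to 0.27) and TCONS_00006339 (-0.32 to 0.33). A pseudocount of 1 gave 0.058 for TCONS_00012893, and quantile normalization gave -0.14 for TCONS_00011217 and -0.10 for TCONS_00006339. Summing members that share a junction, chosen after seeing the data, gave 0.071 for TCONS_00007505 and -0.12 for TCONS_00006339. The cause of these turns was not tested. Rescaling to TPM moved the median of all transcripts from -0.012 to 0.044. Joining transcripts only by exonic overlap split the second locus into TCONS_00001005 (-0.49) and the other 13 (-0.15). Without a filter on low values all 17 members were tested and 0 were called.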
